A study of Mus musculus with 7 samples.

Results

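The 47 genes described here assemble and run the DNA replication fork in mammary tissue. They were taken by gene symbol from a list of origin, helicase, polymerase, clamp and nucleotide supply genes, and were grouped into 9 steps. Of the 47 genes, 46 had a row among the 23930 amplicons of the panel. Of these, 44 reached at least 1 RPM (reads per 1000000 reads on the panel) in at least 3 mice and were tested among 13080 genes. Pcna, the sliding clamp, was not analysed here, and Orc1 and Fen1 lay below the limit of 1 RPM.

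The study asked what extra HMMR, a protein of the mitotic spindle, does to mammary glands that lose Brca1. RNA was measured in 4 Blg-Cre;HMMR Tg/Tg;Brca1f/f;Trp53+/- mice, called HMMR Tg/Tg mice (mice 7, 8, 9 and 11), and in 3 Blg-Cre;Brca1f/f;Trp53+/- mice, called control mice (mice 1, 2 and 3). The tissue was the contralateral gland, on the side away from an incident tumor, fixed in formalin and embedded in paraffin. The labels call the mice age-matched and the tissue premalignant, and give no age. The study states average ages only over a larger set of mice than these 7. Both groups therefore carried floxed Brca1 alleles and a single intact copy of Trp53, and differed by human HMMR coding sequence placed in both Rosa26 alleles behind a floxed stop cassette. The β-lactoglobulin promoter drives this Cre in milk-producing epithelium of parous mice, so stromal, fat and immune cells of the same sections were not targeted. Each mouse gave 1 library, and the mice were of mixed background.

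A cell licenses its replication origins in G1 phase, when the origin recognition complex, Cdc6 and Cdt1 load the ring-shaped MCM helicase onto DNA. In S phase the Cdc7 kinase, Cdc45 and the GINS complex turn the loaded ring into an active helicase, and polymerases alpha, epsilon and delta copy the unwound strands behind it. Many of these genes are targets of E2F transcription factors and are transcribed as cells leave G1, so their RNA in a tissue is commonly read as a mark of cycling cells. In bulk tissue, fewer cells of a type and less RNA per cell cannot be told apart.

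Promoter letters, which the list had not used, were counted next. RefSeq promoters on build GRCm38.p6, each running from 250 bases before to 50 bases after a gene's start, were available for 38 of the 47 genes, in 47 entries. They were searched on both strands for the E2F-type letters TTTCCCGC, TTTGGCGC, TTTCGCGC and TTTGCCGC, which can overlap one another. At least 1 of these stood in 14 of the 38 genes (36.8%), against 441 of 9875 tested genes with a promoter (4.47%) and 704 of 27025 genes with any entry (2.60%). The CCAAT letters stood in 23 of the 38 genes (60.5%), against 41.2% of tested genes. The letters TTTGAA or TTCGAA, a form of the cell cycle homology region (CHR) known from mitotic genes, stood in 9 of the 38 (23.7%), against 16.6% of tested genes. Among other replication genes, E2F-type letters stood in 10 of 32 (31.2%) and CHR letters in 5 of 32 (15.6%). In a list of mitosis genes, E2F-type letters stood in 1 of 16 (6.25%), CHR letters in 12 of 16 (75%) and CCAAT in 13 of 16 (81.2%). These shares were not tested, and a match in letters is a description and not a binding site.

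The stretches below are shown because the E2F-type letters, in capitals, lie upstream of the annotated gene in these 4 of the 14 genes. Each is RefSeq sequence of GRCm38.p6 on the gene's own strand. Mcm6 (chr1:128359706-128359855, minus strand) held 3 matches, the first 110 bases before the start. Mcm5 (chr8:75109316-75109407, plus strand) held 2 overlapping matches, 1 on each strand, to different E2F-type letters. Gins3 (chr8:95633478-95633558, plus strand) and Rfc3 (chr5:151651209-151651258, minus strand) held 1 match each in the printed stretch, 41 and 10 bases before the start. The Rfc3 promoter held another match 1 base past the start, which is not printed.
Mcm6: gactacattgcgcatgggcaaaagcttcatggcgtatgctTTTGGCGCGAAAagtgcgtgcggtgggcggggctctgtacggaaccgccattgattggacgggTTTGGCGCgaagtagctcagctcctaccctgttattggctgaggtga
Mcm5: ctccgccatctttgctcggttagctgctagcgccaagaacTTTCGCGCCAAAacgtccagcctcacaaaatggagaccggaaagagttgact
Gins3: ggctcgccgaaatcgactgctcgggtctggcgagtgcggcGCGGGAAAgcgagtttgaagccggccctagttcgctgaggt
Rfc3: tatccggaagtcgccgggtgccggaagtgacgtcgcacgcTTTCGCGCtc

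**Figure D1:**
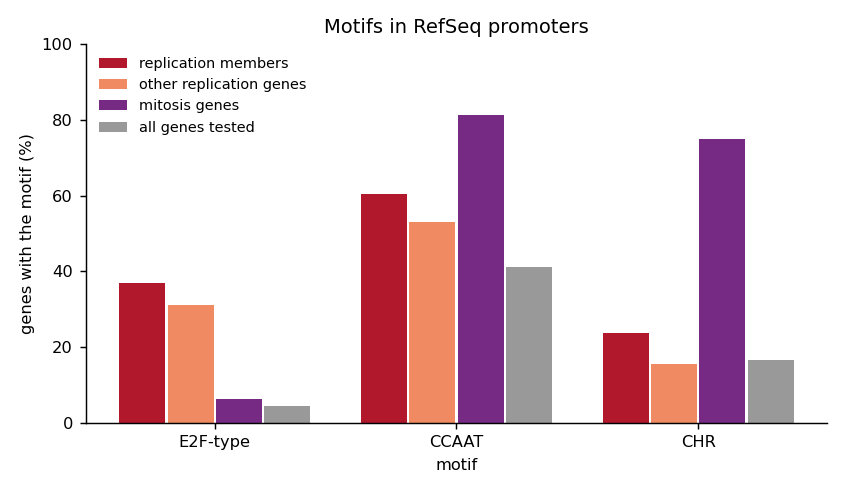
Bars give the percent of genes whose RefSeq promoter holds each motif, for replication genes (38 with a promoter), other replication genes, mitosis genes and all tested genes. E2F-type letters stand in 36.8% of the replication genes and 4.47% of all tested genes, while CHR letters stand in 75% of the mitosis genes.

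Total reads were 5976449 to 9345916 in HMMR Tg/Tg mice and 5532358 to 9058247 in control mice (exact permutation test, two-sided, p = 0.971). A single read was worth 0.107 to 0.181 RPM. The amplicon for mouse Hmmr averaged 8.05 ± 4.60 RPM in HMMR Tg/Tg mice and 2.97 ± 1.37 RPM in control mice (SD, n = 4 and 3; log2 fold change 1.07, limma adjusted p = 0.533). Whether it reads the human transgene was not tested. The groups overlapped for Hmmr, with mouse 9 at 2.43 RPM inside the control range of 1.45 to 4.09 RPM. Brca1 was read at 1.84 to 3.97 RPM in HMMR Tg/Tg mice and 0.542 to 1.21 RPM in control mice, without overlap. Its log2 fold change was 0.89 (limma adjusted p = 0.431), and whether its amplicon covers the floxed part was not tested. All 14 luminal and 9 basal markers had reads, and the summed luminal markers overlapped, at 3353 to 4864 RPM in HMMR Tg/Tg mice and 2829 to 3485 RPM in control mice. This sum rested largely on Epcam, at 1647 to 2430 RPM in HMMR Tg/Tg mice and 1108 to 1382 RPM in control mice. Single luminal markers differed in direction without overlap, with log2 fold changes of 0.78 for Epcam and 0.99 for Cldn3 but -1.03 for Prlr and -0.76 for Foxa1. Summed basal markers did not overlap, at 1170 to 1648 RPM against 917.7 to 1035 RPM. Skeletal muscle markers (11 genes) did not overlap either, at 23.6 to 89.2 RPM in HMMR Tg/Tg mice and 1392 to 7964 RPM in control mice. For both sums the exact two-sided permutation p was 0.0571, the smallest this design allows, and 0.314 after adjustment over 11 comparisons. The part of these cell types in the results that follow was not tested.

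No replication gene passed an adjusted p of 0.05 in limma in either direction. Among all tested genes, 0.0382% were called higher and 0.367% lower in HMMR Tg/Tg mice. Log2 fold changes of RPM + 1, here always HMMR Tg/Tg over control, had a median of 0.50 over the 44 tested genes and ran between -0.31 for Gins4 and 1.18 for Tyms. The median of all tested genes was 0.11, with quartiles of -0.15 and 0.35. Values above 0 were found for 42 of the 44 replication genes, against 61.2% of all tested genes. In 9 genes (Orc5, Orc6, Cdc6, Gmnn, Mcm7, Pole, Rfc4, Tipin and Tyms) every HMMR Tg/Tg mouse lay above every control mouse, against 6.52% of all tested genes, and in 0 genes every one lay below, against 3.34%. An estimate of 1 or more, a doubling, was seen for 5 genes, against 2.31% of tested genes.

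At an unadjusted p under 0.05, limma gave 11 replication genes with a higher estimate in HMMR Tg/Tg mice and 0 with a lower one, against 6.49% and 3.22% of all tested genes. This count was 6 without mouse 7, 7 without mouse 8, 18 without mouse 9 and 6 without control mouse 1. On reads recovered from the RPM values, edgeR called 0 replication genes after adjustment, against 0.0306% of all tested genes called higher and 0.497% called lower. At an unadjusted p under 0.05 edgeR gave 11 replication genes with a higher estimate, against 4.44% of all tested genes, and 0 with a lower one, against 5.13%. DESeq2 called 2, Orc6 and Mcm7, both higher in HMMR Tg/Tg mice, against 0.604% of all tested genes called higher and 1.43% called lower by DESeq2. In the DESeq2 fit, which differs from limma in scaling, model and pseudocount together, the median of all genes was -0.01, a shift of -0.12, and that of the replication genes 0.59. With only the scaling changed, the median of the replication genes was 0.45 under TMM factors and 0.48 under quantile normalization. Besides Gins4 and Pole2, whose estimates lay below 0 wherever they were tested, the sign was not fixed for Pold2, Mcm10, Mcm3, Orc3 and Prim1, each of which was below 0 under at least 1 other scaling, weighting or leave-out.

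**Figure D2:**
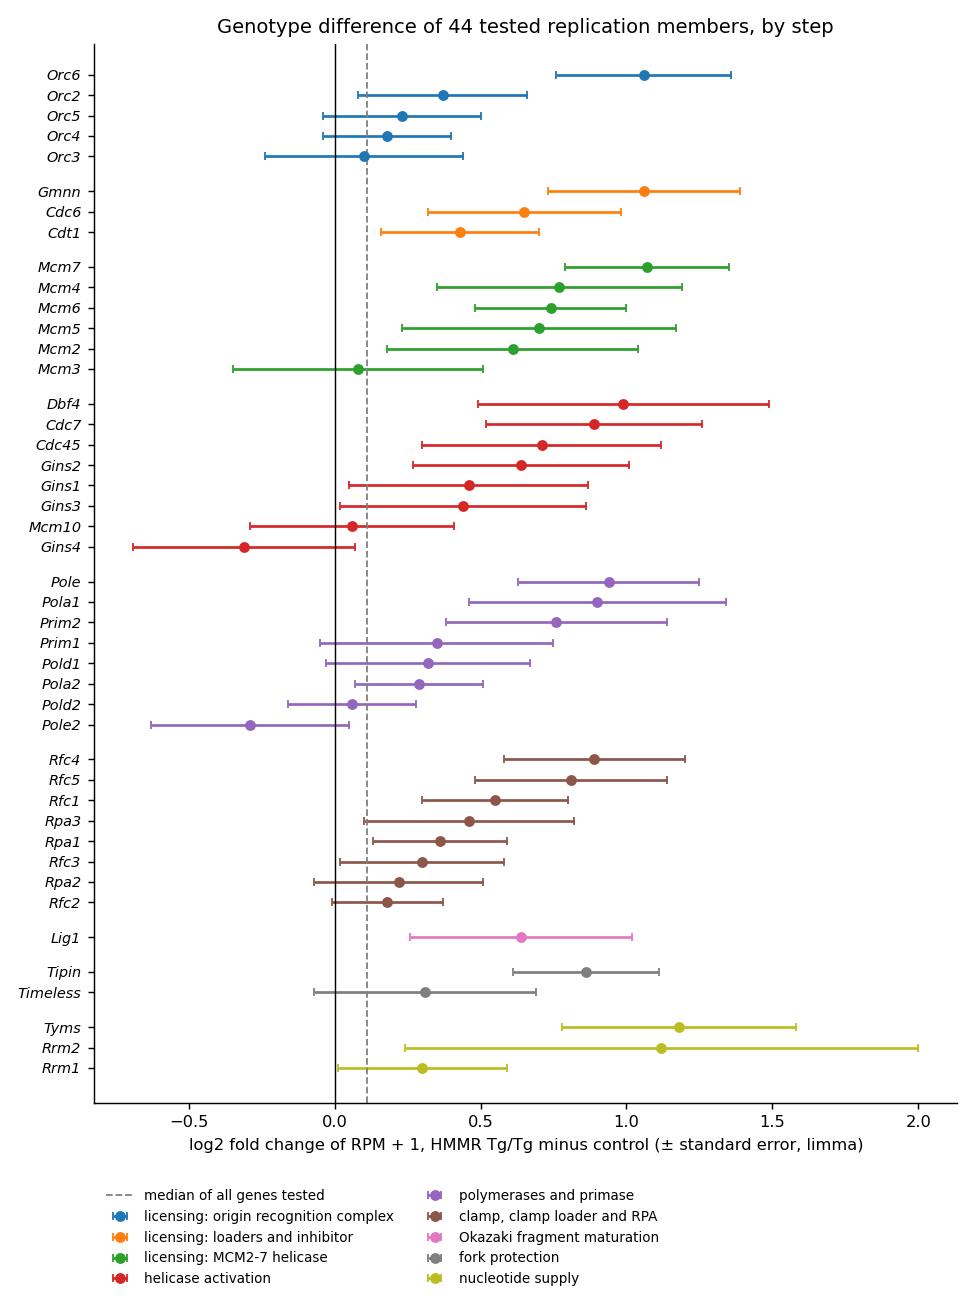
Points give the log2 fold change of RPM + 1 (HMMR Tg/Tg minus control) of each tested replication gene with its limma standard error, grouped by step, and the dashed line is the median of all tested genes, 0.11. Of 44 points 42 lie to the right of 0, and Gins4 and Pole2 lie to the left.

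The origin recognition complex marks the places where replication can start. Its 5 tested subunits had a median log2 fold change of 0.23 and log2 fold changes of 0.10 to 1.06. In what follows, values are listed in the order of mice 7, 8, 9 and 11 for HMMR Tg/Tg and of mice 1, 2 and 3 for control. Orc6, the smallest subunit, was read at 33.9, 37.3, 27.7 and 19.2 RPM in HMMR Tg/Tg mice, against 9.94, 14.9 and 15.8 RPM in control mice. The lowest HMMR Tg/Tg mouse, 11, stood above the highest control mouse, 3, and the log2 fold change was 1.06 (standard error 0.30, limma adjusted p = 0.262, edgeR adjusted p = 0.186, DESeq2 adjusted p = 0.0326). Orc5 had 12.9, 11.8, 10.5 and 9.54 RPM in HMMR Tg/Tg mice, against 9.40, 9.16 and 9.36 RPM in control mice. Its groups did not overlap, with a log2 fold change of 0.23 (limma adjusted p = 0.819). Mouse 11 exceeded control mouse 1 by less than the 0.167 RPM that 1 read was worth in mouse 11.

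Orc2 and Orc4 belong to the core ring of the same complex. Orc2 had 11.0, 11.4, 7.93 and 8.87 RPM in HMMR Tg/Tg mice, against 6.15, 8.28 and 7.6 RPM in control mice (log2 fold change 0.37, limma adjusted p = 0.719). Orc4 had 51.7, 43.9, 38.0 and 41.8 RPM in HMMR Tg/Tg mice, against 40.7, 45.3 and 30.6 RPM in control mice (log2 fold change 0.18, limma adjusted p = 0.826). In both genes the groups overlapped, as they did for Orc3, whose log2 fold change was 0.10. Orc1, the subunit that in human cells is degraded after origins fire, had 1.79, 3.21, 0.256 and 0.502 RPM in HMMR Tg/Tg mice, against 0, 0.883 and 0.585 RPM in control mice. These are 14, 30, 2 and 3 reads against 0, 8 and 5 reads, so mice 7 and 8 alone stood above the control mice, and Orc1 was left out of the fit.

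Cdc6 and Cdt1 bring the helicase to the origin, and geminin, the product of Gmnn, binds Cdt1 and blocks a second round of loading. Gmnn had 44.8, 51.6, 18.9 and 32.6 RPM in HMMR Tg/Tg mice, against 18.3, 15.8 and 14.6 RPM in control mice. The groups did not overlap, but mouse 9 exceeded control mouse 1 by less than 1 RPM (log2 fold change 1.06, standard error 0.33, limma adjusted p = 0.316). Cdc6 was sparse, with 16, 27, 17 and 12 reads in HMMR Tg/Tg mice, against 7, 6 and 12 reads in control mice. In RPM these were 2.05, 2.89, 2.17 and 2.01 against 1.26, 0.662 and 1.40, without overlap, and the log2 fold change was 0.65 (limma adjusted p = 0.555). Cdt1 had 36.2, 48.0, 25.4 and 35.6 RPM in HMMR Tg/Tg mice, against 23.9, 21.3 and 34.6 RPM in control mice (log2 fold change 0.43, limma adjusted p = 0.649). Control mouse 3 stood above mouse 9 for this gene.

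The 6 subunits of the MCM helicase form a ring around DNA that opens the double helix ahead of the fork. Their median log2 fold change was 0.72, and all 6 estimates were above 0, although that of Mcm3 (0.08) turned negative without mouse 7, mouse 8 or control mouse 1. Mcm7 had 39.2, 30.8, 24.8 and 26.1 RPM in HMMR Tg/Tg mice, against 9.94, 13.9 and 18.1 RPM in control mice. The groups did not overlap and came nearest between mouse 9 and control mouse 3. The log2 fold change was 1.07 (standard error 0.28), with an adjusted p of 0.23 from limma, 0.161 from edgeR and 0.0195 from DESeq2. The span of Mcm7 also covers part of Ap4m1, whose own amplicon had a log2 fold change of 0.55 (limma adjusted p = 0.471), and where on these genes each amplicon lies is not given in the sources used here.

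Mcm6 had 51.1, 53.2, 32.6 and 39.2 RPM in HMMR Tg/Tg mice, against 20.4, 23.7 and 33.9 RPM in control mice (log2 fold change 0.74, standard error 0.26, limma adjusted p = 0.365). Mouse 9 lay just under control mouse 3, and the other 3 HMMR Tg/Tg mice lay above all control mice. Mcm4 had 6.79, 8.03, 5.24 and 4.02 RPM in HMMR Tg/Tg mice, against 1.26, 3.20 and 5.85 RPM in control mice (log2 fold change 0.77, limma adjusted p = 0.603, and 0.35 on the log2 scale without control mouse 1). Mcm5 had 18.8, 24.4, 4.73 and 19.1 RPM in HMMR Tg/Tg mice, against 7.77, 9.49 and 8.42 RPM in control mice (log2 fold change 0.70, limma adjusted p = 0.666). For Mcm5 mouse 9 was below all 3 control mice while the other HMMR Tg/Tg mice were above them, and the log2 fold change without mouse 9 was 1.18. Mcm2, whose log2 fold change was 0.61, showed the same split less sharply, with mouse 9 at 6.90 RPM inside the control range of 6.15 to 14.0 RPM. Mcm3 was read at 0.167 to 1.82 RPM over all 7 mice.

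**Figure D3:**
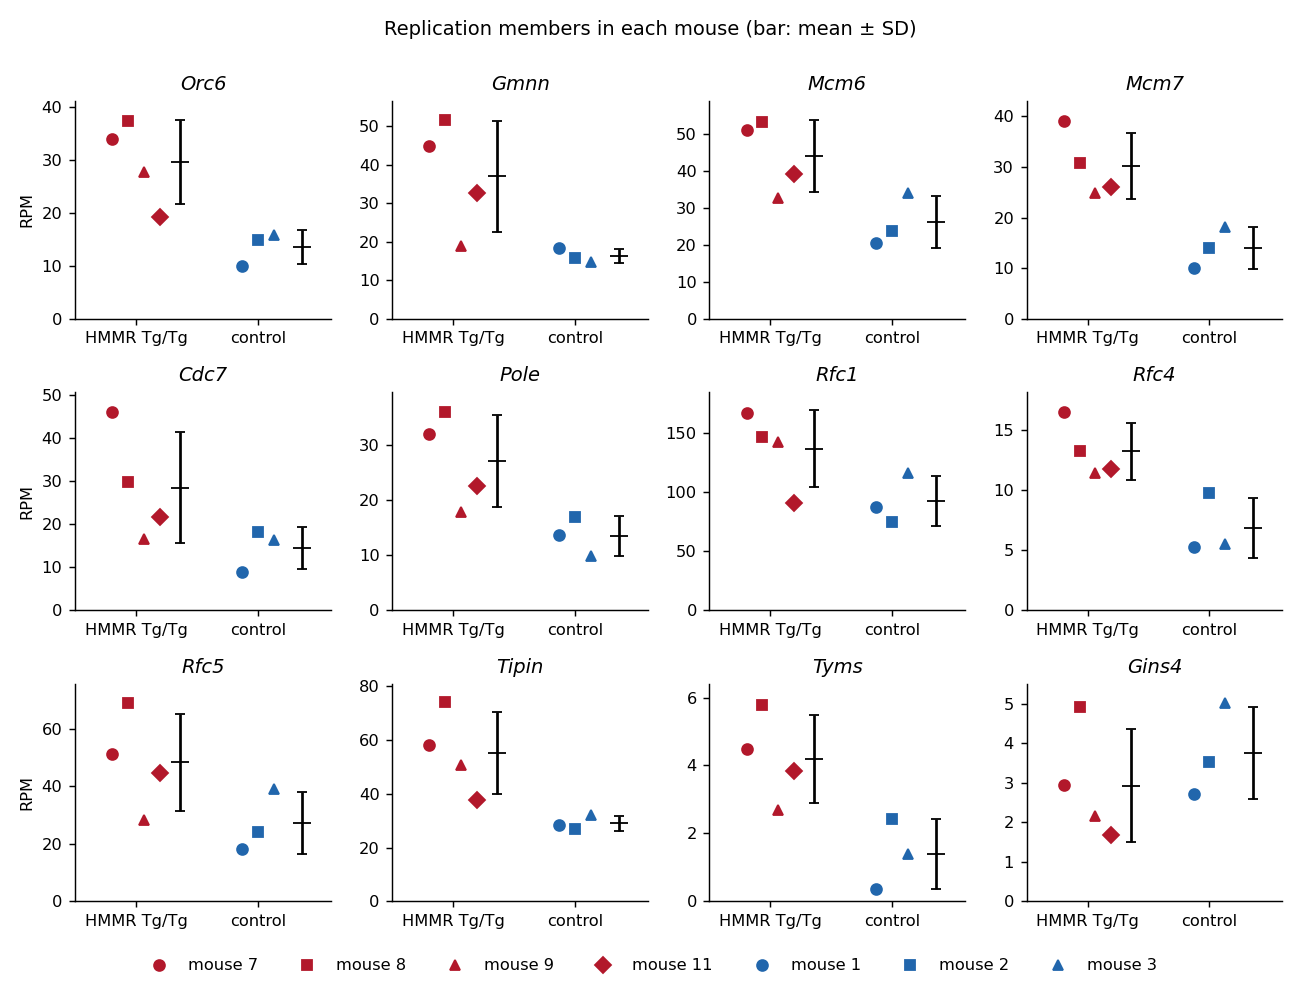
Each panel shows RPM in HMMR Tg/Tg mice (red, left) and control mice (blue, right) for the 11 replication genes with an unadjusted limma p under 0.05 and for Gins4, with mean ± SD as a bar. The groups do not overlap for Orc6, Gmnn, Mcm7, Pole, Rfc4, Tipin and Tyms, and mouse 9 is within the control range for Mcm6, Cdc7 and Rfc5.

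Cdc7 and its activating partner Dbf4 form the kinase that starts the loaded helicase. Cdc7 had 45.8, 29.7, 16.4 and 21.6 RPM in HMMR Tg/Tg mice, against 8.86, 18.1 and 16.3 RPM in control mice (log2 fold change 0.89, standard error 0.37, limma adjusted p = 0.472). Dbf4 had 20.4, 28.5, 5.75 and 11.7 RPM in HMMR Tg/Tg mice, against 3.8, 8.06 and 9.47 RPM in control mice (log2 fold change 0.99, standard error 0.50, limma adjusted p = 0.558). In both genes mice 7, 8 and 11 lay above the control mice and mouse 9 lay among them. Cdc45, which rides with the helicase, had 5.38, 3.96, 1.28 and 2.84 RPM in HMMR Tg/Tg mice, against 0.904, 1.99 and 1.75 RPM in control mice (log2 fold change 0.71, limma adjusted p = 0.623). Here too mouse 9 was the exception.

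The 4 GINS subunits, which join Cdc45 and the MCM ring in the active helicase, had estimates of both signs. Gins2 had 6.53, 4.17, 2.30 and 5.35 RPM in HMMR Tg/Tg mice, against 2.89, 2.32 and 2.11 RPM in control mice (log2 fold change 0.64, limma adjusted p = 0.615). Gins4 had 2.95, 4.92, 2.17 and 1.67 RPM in HMMR Tg/Tg mice, against 2.71, 3.53 and 5.03 RPM in control mice (log2 fold change -0.31, standard error 0.38, limma adjusted p = 0.826). Its groups overlapped, with mice 9 and 11 below all control mice and none above control mouse 3. Gins1 and Gins3 had log2 fold changes of 0.46 and 0.44 with overlapping groups. Mcm10, which helps to convert the loaded ring into a moving helicase, had a log2 fold change of 0.06 at 0.362 to 1.40 RPM over all mice. Over the 8 genes of helicase activation the median was 0.55.

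Polymerase epsilon copies the leading strand, polymerase delta the lagging strand, and polymerase alpha with primase starts each new fragment. Pole, the catalytic subunit of polymerase epsilon, had 32.0, 36.1, 17.8 and 22.6 RPM in HMMR Tg/Tg mice, against 13.6, 17.0 and 9.82 RPM in control mice. The groups did not overlap, with mouse 9 just above control mouse 2 (log2 fold change 0.94, standard error 0.31, limma adjusted p = 0.345). Pole2, the second subunit of the same enzyme, had 2.69, 1.93, 1.79 and 2.68 RPM in HMMR Tg/Tg mice, against 1.99, 3.53 and 3.63 RPM in control mice (log2 fold change -0.29, standard error 0.34, limma adjusted p = 0.817). Its groups overlapped, at 11 to 32 reads per mouse. The difference between these 2 subunits was not tested.

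Pola1, the catalytic subunit of polymerase alpha, had 15.1, 24.4, 8.31 and 8.37 RPM in HMMR Tg/Tg mice, against 3.62, 6.51 and 10.4 RPM in control mice (log2 fold change 0.90, standard error 0.44, limma adjusted p = 0.548). Prim2, the large primase subunit, had 29.7, 35.2, 15.0 and 17.2 RPM in HMMR Tg/Tg mice, against 11.2, 9.16 and 21.4 RPM in control mice (log2 fold change 0.76, limma adjusted p = 0.551). Mice 7 and 8 lay above all control mice for both genes, and mice 9 and 11 lay below control mouse 3. Pola2, the accessory subunit of polymerase alpha, had 67.7, 73.7, 64.4 and 59.9 RPM in HMMR Tg/Tg mice, against 56.9, 40.4 and 69.0 RPM in control mice (log2 fold change 0.29, limma adjusted p = 0.706). Prim1, Pold1 and Pold2, the small primase subunit and the first 2 subunits of polymerase delta, had log2 fold changes of 0.35, 0.32 and 0.06 with overlapping groups. The median over the 8 polymerase and primase genes was 0.33.

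Replication factor C opens the sliding clamp and places it on DNA, and RPA covers the single strands that the helicase exposes. Over the 8 tested genes of this step the median was 0.41, and all 8 estimates were above 0. Rfc4 had 16.5, 13.3, 11.4 and 11.7 RPM in HMMR Tg/Tg mice, against 5.24, 9.71 and 5.5 RPM in control mice (log2 fold change 0.89, standard error 0.31, limma adjusted p = 0.365). Rfc5 had 51.2, 68.8, 28.4 and 44.7 RPM in HMMR Tg/Tg mice, against 18.3, 24.1 and 39.1 RPM in control mice (log2 fold change 0.81, standard error 0.33, limma adjusted p = 0.463). The groups of Rfc4 did not overlap, whereas for Rfc5 mouse 9 lay under control mouse 3. Rfc1, the large subunit, had 167, 146, 142 and 90.9 RPM in HMMR Tg/Tg mice, against 87.1, 74.1 and 116 RPM in control mice (log2 fold change 0.55, standard error 0.25, limma adjusted p = 0.507). For this gene mouse 11, not mouse 9, lay within the control range.

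Rfc2 and Rfc3 had log2 fold changes of 0.18 and 0.30 with overlapping groups. Rpa1, the large subunit of RPA, had 143, 137, 111 and 103 RPM in HMMR Tg/Tg mice, against 84.1, 77.9 and 132 RPM in control mice (log2 fold change 0.36, limma adjusted p = 0.651). Control mouse 3 stood above mice 9 and 11. Rpa2 and Rpa3, the smaller subunits, had log2 fold changes of 0.22 and 0.46. Fen1, the flap endonuclease that trims Okazaki fragments, had 0 reads in all 7 mice, which allows up to 3 reads or 0.321 to 0.542 RPM per mouse. A gene that dividing cells use was thus listed at 0, and nothing was read from it. Lig1, the ligase that seals these fragments, had 10.2, 14.7, 6.27 and 8.37 RPM in HMMR Tg/Tg mice, against 3.43, 6.07 and 8.65 RPM in control mice (log2 fold change 0.64, limma adjusted p = 0.631), and mice 9 and 11 overlapped the control mice.

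Tipin and Timeless form a complex that travels with the fork and keeps helicase and polymerase together. Tipin had 58.1, 73.9, 50.5 and 37.8 RPM in HMMR Tg/Tg mice, against 28.4, 26.7 and 32.0 RPM in control mice. The groups did not overlap, and mouse 11 came nearest to the control mice (log2 fold change 0.86, standard error 0.25, limma adjusted p = 0.272). Timeless had 6.92, 7.81, 3.20 and 4.35 RPM in HMMR Tg/Tg mice, against 2.89, 3.86 and 5.85 RPM in control mice (log2 fold change 0.31, limma adjusted p = 0.826). Its groups overlapped, with mice 7 and 8 above all control mice.

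Ribonucleotide reductase, made of Rrm1 and Rrm2, produces deoxynucleotides, and thymidylate synthase, the product of Tyms, makes the thymidine nucleotide. Tyms had 4.48, 5.78, 2.69 and 3.85 RPM in HMMR Tg/Tg mice, against 0.362, 2.43 and 1.40 RPM in control mice. The groups did not overlap, and the log2 fold change of 1.18 (standard error 0.40, limma adjusted p = 0.360) rested on 21 to 54 reads per HMMR Tg/Tg mouse and 2 to 22 reads per control mouse. Rrm2, the subunit whose supply follows S phase, had 6.53, 11.8, 0 and 0.335 RPM in HMMR Tg/Tg mice, against 0, 0 and 2.69 RPM in control mice. It was present at 51 and 110 reads in mice 7 and 8 and at 23 reads in control mouse 3, with 0 to 2 reads elsewhere (log2 fold change 1.12, standard error 0.88, limma adjusted p = 0.714). Rrm1, which is more stable through the cycle, had 82.9, 78.2, 37.3 and 80.1 RPM in HMMR Tg/Tg mice, against 58.2, 56.7 and 46.7 RPM in control mice (log2 fold change 0.30, limma adjusted p = 0.768). Mouse 9 was below all control mice and the other HMMR Tg/Tg mice were above them, and without mouse 9 the log2 fold change was 0.58.

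Levels of the replication genes also differed between mice of 1 genotype. Mice 8 and 7 had the highest level of all 7 mice in 24 and 14 of the 44 genes, against 12.4% and 17.9% of all tested genes. Mice 9 and 11 were highest in 1 and 2 genes, against 18.1% and 8.91% of all tested genes. Control mouse 3 was highest in 3, against 20.7%. Control mouse 1 was lowest of the 7 in 20 genes, against 33.8% of all tested genes, and control mouse 2 in 10, against 17.4%. Among the 3 control mice alone, mouse 1 was the lowest in 26 genes, against 49.9% of all tested genes. A tie at 0 reads for Rrm2 in mice 9, 1 and 2 was given to mouse 9. Mice 7 and 8 each exceeded all control mice in 37 genes, mouse 11 in 25 and mouse 9 in 12, against 35%, 28.3%, 21.7% and 32.3% of all tested genes in mice 7, 8, 11 and 9. Among the 4 HMMR Tg/Tg mice, mouse 9 was the lowest in 29 of 44 genes, against 21.6% of all tested genes, and mouse 8 the highest in 25, against 20.8%.

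The mean of log2(RPM + 1) over the 44 genes was 4.14, 4.23, 3.44 and 3.71 in HMMR Tg/Tg mice, against 3.08, 3.39 and 3.58 in control mice. Mouse 9 thus lay between control mice 2 and 3. Control mouse 1, the lowest, also had the fewest reads of the 7 libraries. The same mean over 8 basal epithelial markers was 6.38, 6.57, 6.04 and 5.95 in HMMR Tg/Tg mice, against 5.49, 5.87 and 6.03 in control mice, and over 14 luminal markers it was 6.86, 7.17, 6.57 and 6.72 against 6.5, 7.10 and 6.29. Mice 7 and 8 were the highest HMMR Tg/Tg mice in both epithelial lists, and control mouse 1 was the lowest mouse in the basal list. In the luminal list, however, control mouse 2 lay above mice 7, 9 and 11. Control mouse 3, the highest control mouse for the replication genes, was the lowest mouse in the luminal list. Mouse 9, low in many replication genes, had the most adipocyte marker RPM, at 17640 against 6600 to 9199 in the other HMMR Tg/Tg mice and 5023 to 9748 in control mice, and the most endothelial marker RPM (545.9). Mice 7 and 8 had more B and plasma cell marker RPM (561.4 and 266.2) than mice 9 and 11 (111.4 and 141.2). They also had more T cell marker RPM (116.5 and 109.2 against 54.1 and 64.8). In control mice 1, 2 and 3 the B and plasma cell markers summed to 599.0, 125.5 and 599.7 RPM. Within these sums Jchain alone gave 133, 96.4, 81.5 and 107 RPM in HMMR Tg/Tg mice, against 171, 110 and 141 RPM in control mice. The T cell markers of these control mice summed to 169.9, 42.7 and 315.6 RPM. Milk protein markers (6 genes) summed to 22700, 49330, 7946 and 77440 RPM in HMMR Tg/Tg mice, against 21610, 107900 and 6703 RPM in control mice. The part of these cell types and of milk proteins in the replication values was not tested.

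**Figure D4:**
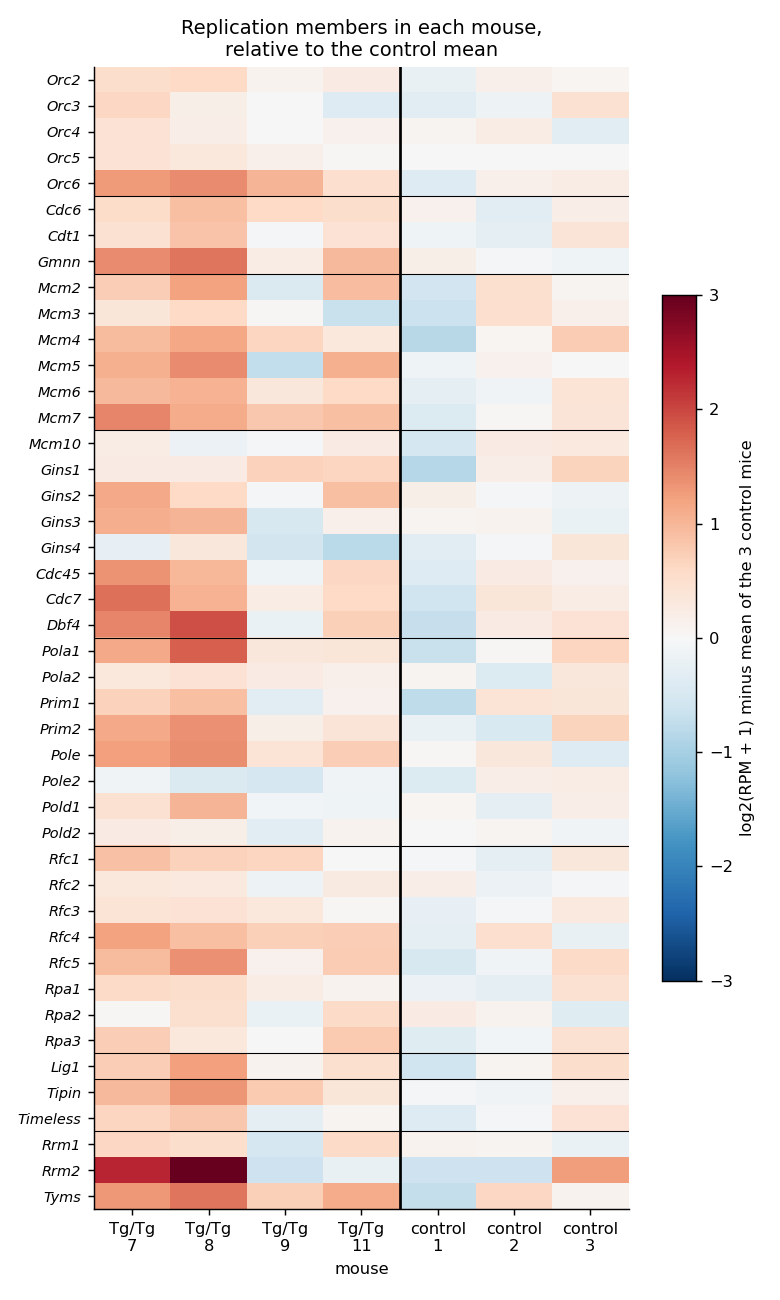
Each row is a tested replication gene and each column a mouse, and color gives log2(RPM + 1) minus the mean of the 3 control mice, from blue (lower) to red (higher). Mice 7 and 8 are red in most rows, each exceeding all control mice in 37 of 44, whereas mouse 9 does so in 12.

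The rest of the replication pathway was read from a list of 40 genes, of which 36 were tested. Their median log2 fold change was 0.37, with 30 estimates above 0 and 6 below, 0 adjusted calls in limma and 8 at an unadjusted p under 0.05, all with higher estimates in HMMR Tg/Tg mice, against 6.49% of all tested genes. After adjustment edgeR and DESeq2 also called 0 of them. Among the firing factors, Recql4, a helicase of origin firing, averaged 17.1 ± 7.04 RPM in HMMR Tg/Tg mice and 6.42 ± 4.25 RPM in control mice (SD, n = 4 and 3; log2 fold change 1.39, limma adjusted p = 0.401). Topbp1 and Ticrr, which bring factors to the loaded helicase, had log2 fold changes of 0.77 and 1.18 (limma adjusted p = 0.381 and 0.442). Of the polymerase subunits, Pole3 had a log2 fold change of 0.72 without overlap of the groups (limma adjusted p = 0.338), Pold3 one of 0.44 and Pole4 one of 0.09. In chromatin assembly and methyl copying, Uhrf1, which guides Dnmt1 to newly copied DNA, averaged 37.4 ± 17.6 RPM in HMMR Tg/Tg mice and 13 ± 4.52 RPM in control mice (SD, n = 4 and 3; log2 fold change 1.33, limma adjusted p = 0.365). Chaf1a, a subunit of the chromatin assembly factor, and Dnmt1 had log2 fold changes of 1.19 and 0.44.

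Among flap and clamp genes, Exo1, Pclaf and Rnaseh2a had log2 fold changes of 1.25, 0.92 and 0.45. Of the other nucleotide genes, Tk1, thymidine kinase, had 7.81, 10.6, 4.73 and 11.2 RPM in HMMR Tg/Tg mice, against 0.181, 4.64 and 4.68 RPM in control mice (log2 fold change 1.45, limma adjusted p = 0.417). Its groups did not overlap, by a margin under 0.1 RPM. Dut and Shmt1 had log2 fold changes of 0.81 and 0.84. The 8 E2F factors had a median of 0.55, with 5 estimates above 0 and 3 below. E2f8, E2f1 and E2f6 had the lowest p of them, with log2 fold changes of 1.27, 1.07 and 0.85 (limma adjusted p = 0.408, 0.531 and 0.537). Replication genes with and without E2F-type promoter letters had medians of 0.44 (13 genes) and 0.41 (22 genes).

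A list of 19 tested mitosis genes had a median log2 fold change of 1.07, and all 19 estimates were above 0, against 61.2% of all tested genes. In limma 0 of them passed after adjustment and 12 had an unadjusted p under 0.05, against 6.49% of all tested genes with a higher estimate. After adjustment edgeR called 0 and DESeq2 called 5, all higher, against 0.604% of all tested genes. Their mean log2(RPM + 1) was 4.35, 4.43, 2.86 and 3.89 in HMMR Tg/Tg mice, against 2.16, 3.00 and 2.73 in control mice, so mouse 9 again fell among the control mice. The difference between the mitosis and replication lists was not tested.

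**Figure D5:**
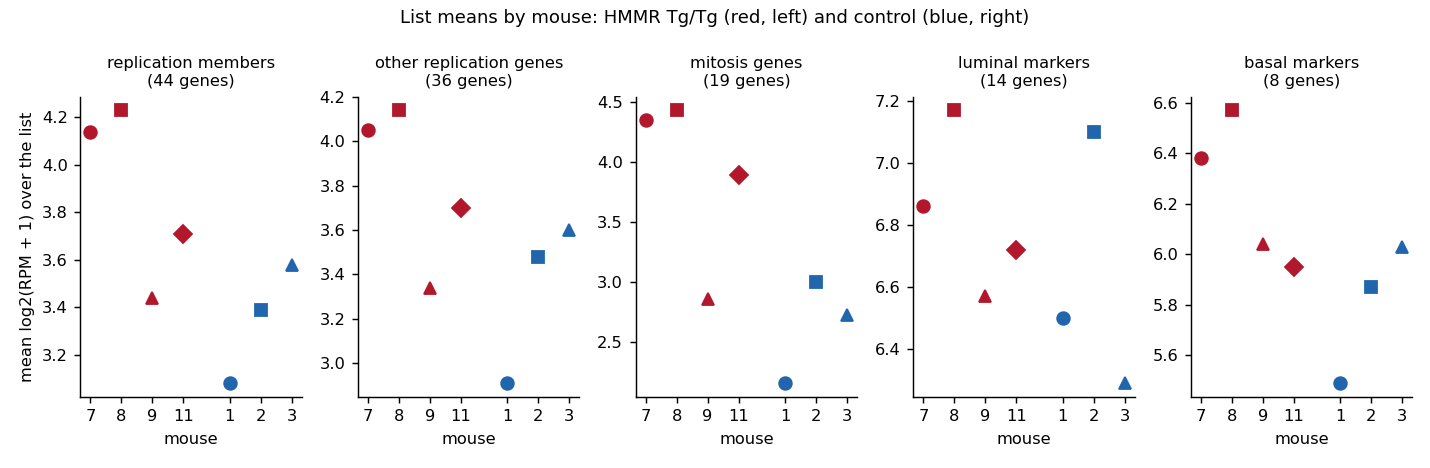
Points give the mean of log2(RPM + 1) over each gene list in each mouse, HMMR Tg/Tg in red on the left and control in blue on the right of each panel, with axes that start above 0. Mice 7 and 8 are highest for the replication, other replication and mitosis lists. Mouse 9 lies within the control range for the replication list (3.44), the other replication list (3.34) and the mitosis list (2.86).

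The replication genes were spread over the genome, with 10 on chromosome 5 and 6 on chromosome 8. On chromosome 5 lay Cdc7, Dbf4, Mcm7, Orc5, Pole, Rfc1, Rfc2, Rfc3, Rfc5 and Tyms. The spans of 21 genes overlapped another RefSeq gene and those of 12 overlapped one with its own amplicon, among them Mcm7 and Rfc4. Reads were counted for each amplicon, and an overlap of gene spans does not show that the amplicons overlap. Neither the amplicon positions nor the use of strand in counting was known. Whether overlapping genes shared reads was therefore not tested.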

How the data were processed

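RNA was extracted by the authors from paraffin sections of contralateral mammary glands (AllPrep DNA/RNA FFPE kit), amplified with the Ion AmpliSeq mouse transcriptome panel and sequenced on an Ion Torrent S5 instrument. Reads went through the AmpliSeqRNA plug-in (aligner and version not given in the sources used here), and the submitters' processing notes list Transcriptome Analysis Console and build mm10. Judged from the values, the authors divided the reads of each amplicon by those of its library, which gave the deposited RPM values (reads per 1000000 reads on the panel), named TPM in the table. They were read as RPM because every mouse summed to 1000000 and 100% of values under 1000 reads were whole multiples of 1 read, within 0.05 reads. RPM carry no correction for length, so levels of different genes were not compared. Gene symbols turned into dates were restored for 27 amplicons. Groups and mouse numbers came from the sample titles.

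The main test was limma 3.58.1 (R 4.3.3; lmFit, then eBayes with a variance trend) on log2(RPM + 1), with genotype as the only term. It covered the 13080 genes that reached 1 RPM in 3 or more mice, and p-values were adjusted over all of them by Benjamini-Hochberg. A fold change on this scale understates the change of low genes. The count tests edgeR 4.0.16 (quasi-likelihood) and DESeq2 1.42.0 served as alternatives, on whole reads recovered from the RPM. DESeq2 gave no adjusted p for Mcm3. Total reads and marker sums were set against all 35 ways of splitting 7 mice into 4 and 3 (exact permutation, two-sided, smaller tail doubled). Limits for a count of 0 used 3 reads and cover counting error only. The scripts were tested on simulated data, with 200 genes changed in each of 10 runs. At an adjusted p under 0.05 limma recovered 9.2% of genes changed 2-fold, 61.9% of those changed 4-fold and 96.2% of those changed 16-fold. Unchanged genes were called 8.8 times per run on average. Within a group, every pair of libraries differed far beyond sampling noise, with a chi-square of 25.7 to 129.6 for each degree of freedom. Pclaf was matched by an older symbol.

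The 47 members, their steps and all gene lists were chosen with earlier results of these data known. Values in every mouse are given for up to 4 members of lowest unadjusted p per step, those with a negative estimate, those under the limit of 1 RPM, and those called by edgeR or DESeq2. In the other lists up to 3 genes of lowest p are named. Promoter stretches were printed only where they lay outside the RefSeq gene span. Alternatives were pseudocounts of 0.1 and 10, no filter or at least 5 RPM, TMM factors, quantile normalization, no trend, array weights, both count tests and leaving out each mouse.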

Additional observations from a re-analysis of the deposited data

Results flagged for a closer look

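In 2 of 45 replication genes checked, 1 HMMR Tg/Tg mouse stood far from the other 3, and in both it was mouse 9. Chance alone would mark about 1 in 20 genes in this way, and neither of the 2 was called between the genotypes. Rfc2, a clamp loader subunit, was at 80.2 RPM in mouse 9, a gap to its nearest neighbour of 0.895 of the group's range. Rrm1, the large ribonucleotide reductase subunit, was at 37.3 RPM in mouse 9, with a gap of 0.898 of the range.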

How the results depend on the processing

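Of the 31 tested replication genes named with values in every mouse, none changed sign in the 517 values that the 17 alternatives gave. Most of these genes were named for a low p, which leaves out estimates nearest 0. Among the tested genes not so named, Pold2, Mcm10, Mcm3, Orc3 and Prim1 did change sign under some alternatives. Rrm2 was not tested without mouse 7, mouse 8 or control mouse 3, nor were 7 of the sparser genes (Cdc6, Gins2, Gins4, Cdc45, Pole2, Rrm2 and Tyms) at 5 RPM. DESeq2 called 2 replication genes after adjustment, Orc6 (log2 fold change 1.01) and Mcm7 (1.01), where limma and edgeR called 0, and the cause was not tested. The count at an unadjusted p under 0.05, 11 with all mice, was 6 to 18 when a mouse was left out, with 6 without mouse 7, 7 without mouse 8, 18 without mouse 9 and 6 without control mouse 1. The median log2 fold change of the replication genes was 0.25 with a pseudocount of 10, 0.69 with a pseudocount of 0.1 and 0.36 to 0.66 with 1 mouse left out, against 0.50 as reported. Without control mouse 1 the log2 fold changes of Mcm4, Cdc7, Dbf4, Pola1 and Lig1 were 0.35, 0.59, 0.65, 0.57 and 0.34, and without mouse 9 those of Mcm5, Rrm1 and Rrm2 were 1.18, 0.58 and 1.71. Requiring at least 5 RPM left 33 replication genes, all 33 with positive estimates. No paired analysis was possible because the groups share no mouse numbers. Depth limits the genes read with few reads, such as Orc1, Rrm2 and Cdc6, and the 3 control mice limit every comparison.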
